A study of Mus musculus with 6 samples.

Results

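Genes of the blood vessels that surround the mouse lens were followed in lens RNA at postnatal day 4: 9 endothelial genes (Cldn5, Esam, Pecam1, Cdh5, Emcn, Flt1, Kdr, Tek and Tie1) and the pericyte gene Rgs5. Every array probe annotated to one of these 10 genes was taken, which gave 15 of the 45281 probes, for 10 of the 19057 genes named on the array. The arrays came from 3 Tdrd7 null and 3 Tdrd7 heterozygous samples on a background mixed from C57BL/6J and C3A.Blia. No sample here was wild type: the control group carries 1 mutant copy of Tdrd7, whose product has Tudor domains and sits in RNA granules of the cytoplasm. The labels name the lens as the tissue, do not say whether attached vessels were removed, and do not say whether samples are single mice or pools, so any spread or p-value here refers to these arrays and may be technical. The members were chosen by vessel function, with their null minus heterozygous differences in log2 signal already known. That difference between genotypes is therefore given as a description, with no test.

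In the embryo the lens is fed by the hyaloid artery and by a capillary net on its surface, the tunica vasculosa lentis, which regress in mice after birth. Their endothelial cells are held together by junction proteins and respond to VEGF through the receptors Kdr and Flt1 and to angiopoietins through Tek. Pericytes wrap these capillaries from outside.

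Promoters of the 4 genes below are printed because they are the members with the largest differences between genotypes that the RefSeq promoter table (build GRCm38.p6) holds. Each covers 250 bases before to 50 bases after the annotated start, 5′ to 3′ along the gene. Rgs5 is read from chr1:169655251-169655550 on the plus strand, Cldn5 from chr16:18776597-18776896 on the plus strand, Flt1 from chr5:147725962-147726261 on the minus strand and Emcn from chr3:137340828-137341127 on the plus strand. Capitals mark GGAAG on either strand (CTTCC where it lies on the other strand). This string extends GGAA, the core bound by ETS factors, a family with known roles in endothelial genes. Copies of GGAA followed by another letter are not marked.
Rgs5: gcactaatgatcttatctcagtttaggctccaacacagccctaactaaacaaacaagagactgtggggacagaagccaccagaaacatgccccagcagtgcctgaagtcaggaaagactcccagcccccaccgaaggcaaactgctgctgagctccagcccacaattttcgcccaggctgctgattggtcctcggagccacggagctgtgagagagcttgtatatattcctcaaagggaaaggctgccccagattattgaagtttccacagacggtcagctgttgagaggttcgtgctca
Cldn5: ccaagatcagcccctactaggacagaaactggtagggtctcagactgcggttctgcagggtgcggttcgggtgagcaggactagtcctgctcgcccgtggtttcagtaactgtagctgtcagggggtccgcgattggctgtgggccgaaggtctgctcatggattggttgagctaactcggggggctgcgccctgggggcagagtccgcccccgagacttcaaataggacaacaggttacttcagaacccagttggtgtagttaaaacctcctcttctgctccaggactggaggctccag
Flt1: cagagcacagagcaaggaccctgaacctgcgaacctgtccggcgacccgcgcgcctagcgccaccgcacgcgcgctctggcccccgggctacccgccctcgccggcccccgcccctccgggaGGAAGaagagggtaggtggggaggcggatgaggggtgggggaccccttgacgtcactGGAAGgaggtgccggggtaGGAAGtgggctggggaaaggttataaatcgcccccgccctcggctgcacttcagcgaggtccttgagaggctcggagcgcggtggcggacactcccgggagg
Emcn: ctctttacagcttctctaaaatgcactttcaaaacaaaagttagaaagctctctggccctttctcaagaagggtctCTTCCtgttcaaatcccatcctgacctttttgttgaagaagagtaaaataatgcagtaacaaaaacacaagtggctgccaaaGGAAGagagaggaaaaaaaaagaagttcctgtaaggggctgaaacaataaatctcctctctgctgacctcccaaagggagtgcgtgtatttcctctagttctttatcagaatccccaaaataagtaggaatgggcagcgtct
Flt1 held 3 matches to GGAAG and Emcn 2, while GGAAG is on neither strand of the windows of Rgs5 and Cldn5. Of the other members in the table, Tie1 held 7 matches, Kdr 1 and Tek 0. GGAAG is common: 71.4% of the 32851 promoters of this length held at least 1 match. A match describes the letters and is no evidence of binding. Esam, Pecam1 and Cdh5 have no entry in the promoter table, so their promoters were not searched.

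The first question was whether lens RNA at this age carries vessel transcripts that these arrays can see. The signals of most vessel genes lay at or near those of negative control beads. A probe counts as detected where its detection p, from its rank among the negative controls of the same array, is under 0.05. Of the 15 probes 3 were detected on all 6 arrays, those of Cldn5, Esam and Tek, and these 3 also had a detection p under 0.01 throughout. A further 8 were detected on some arrays and 4 on none. Over the whole array 25.5% of probes were detected on all arrays and 55.1% on none. Common markers of endothelium were barely seen, Pecam1 by 2 of its 3 probes on at most 3 arrays and Cdh5 by 1 of its probes on 2 arrays, and Tie1 was not detected on any array. Among the members, the label of a vessel signal thus rests, by detection alone, mainly on Cldn5, Esam and Tek. Tek did not follow Cldn5 or Esam from array to array, as given below.

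Counted by array, heterozygous arrays a, b and c detected 6, 5 and 6 member probes, and the null arrays, lettered likewise, 10, 7 and 8. The letters only name arrays in the order of the deposited table. Detection was also somewhat more frequent on the null arrays over all probes, at 33.1% to 34.8% against 30.7% to 32.9% on the heterozygous arrays. Rgs5, Emcn and 1 probe of Flt1 were detected on all 3 null arrays and on at most 1 heterozygous array. That pattern held for 0.941% of all probes, and its mirror image, which no member showed, for 0.208%. Since the genotype difference had a part in choosing the members, nothing is read from that contrast. These 3 probes also entered the fit only because the null arrays detected them.

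**Figure D1:**
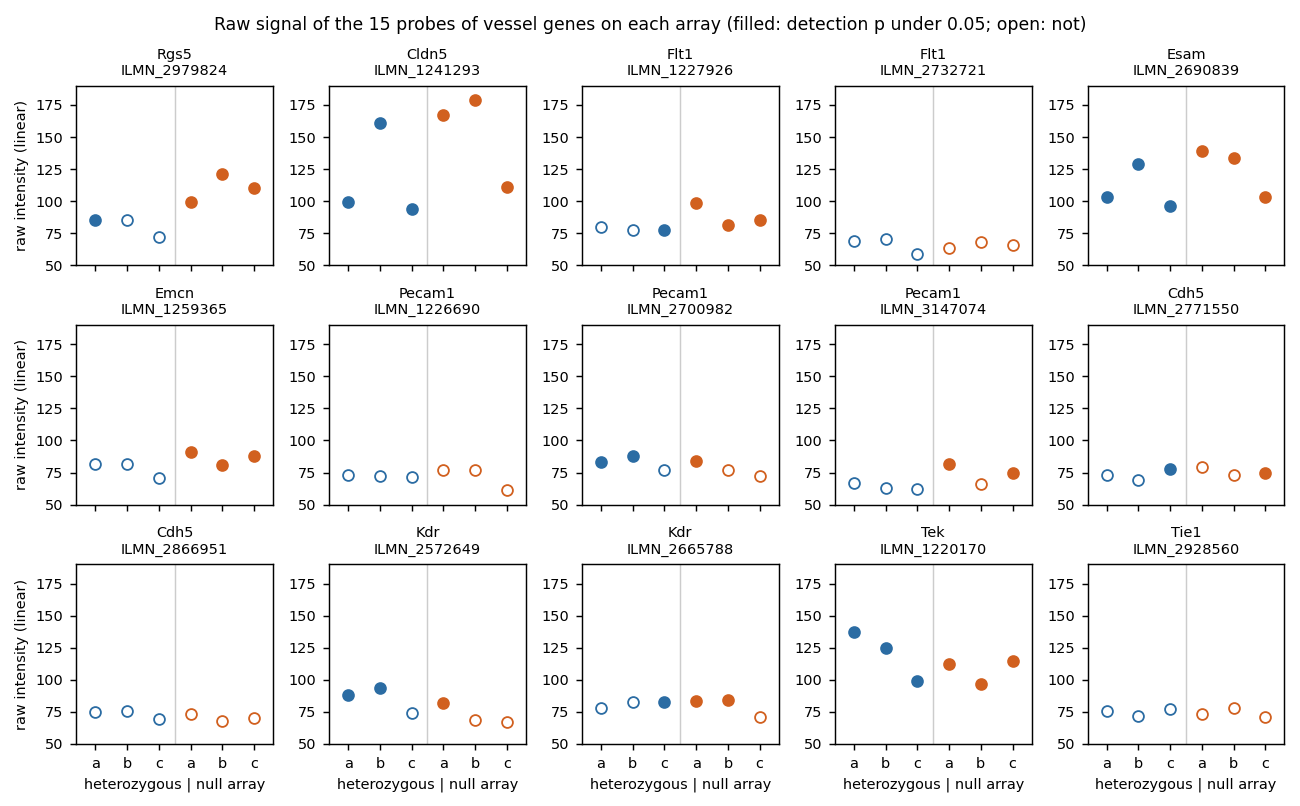
Raw intensity (linear scale) of the 15 probes on heterozygous arrays a to c (blue) and null arrays a to c (orange), with filled points where the detection p was under 0.05. Cldn5, Esam and Tek are filled on all 6 arrays, Rgs5 and Emcn on all null arrays, and 4 panels hold open points only.

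Cldn5 encodes claudin 5, the tight junction protein that seals capillaries of brain and retina. Its raw signal was 99.5, 160.7 and 93.8 on the heterozygous arrays and 167.3, 178.8 and 111.3 on the null arrays, each in the order a, b, c, which is kept below. Heterozygous array b was about as bright as null arrays a and b, and null array c was close to the other heterozygous arrays, so the groups overlapped. After normalisation heterozygous lens had a log2 signal of 5.87 ± 0.71 (SD, n = 3), null lens one of 6.58 ± 0.56 (SD, n = 3), a difference of 0.70 (SE 0.363). The difference was 1.12 without heterozygous array b and 0.35 without heterozygous array c and null array b together.

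Esam, an adhesion molecule of endothelial tight junctions, had raw signals of 103.4, 129.1 and 96.5 on the heterozygous arrays and 139.4, 134 and 103.5 on the null arrays. Its high and low arrays were those of Cldn5, and the groups overlapped. The log2 difference, null minus heterozygous, was 0.40 (SE 0.234), with 0.61 without null array c and 0.25 without null array a.

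Pecam1, the platelet and endothelial adhesion molecule also called CD31, has 3 probes annotated to 3 transcript records, and they did not move as one. The probe detected on 2 heterozygous arrays and 1 null array (ILMN_2700982) read 83.3, 88.1 and 76.8 on the heterozygous and 84.3, 76.7 and 72.2 on the null arrays, with a log2 difference of -0.10 (SE 0.156) that was 0.01 with array weights. The probe detected on 2 null arrays (ILMN_3147074) read 66.7, 63 and 62 on the heterozygous and 81.7, 66.2 and 74.8 on the null arrays, with a log2 difference of 0.35. The remaining probe was detected on no array and differed by 0.07.

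Cdh5 is VE-cadherin, the adhesion protein of endothelial adherens junctions. Its better probe read 73.1, 69.5 and 77.8 on the heterozygous arrays and 79.1, 73 and 74.6 on the null arrays, each within reach of the negative controls. It was detected on heterozygous array c and null array c only, and the log2 difference was 0.12. The second probe was detected nowhere and differed by -0.01. No difference of Cdh5 could be resolved at such signals.

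Emcn encodes endomucin, a sialomucin of capillary and venous endothelium. Its raw signal was 81.3, 82 and 70.5 on the heterozygous arrays, where it was not above background, and 91.1, 81.1 and 88 on the null arrays. Raw values of the groups overlapped, while after normalisation all null arrays lay above all heterozygous arrays. On the normalised, background-corrected scale the null mean was at least 1.24-fold the lowest detected signal of the heterozygous arrays. The measured log2 difference was 0.48 (SE 0.169) on that scale, 0.20 in the authors' normalised values and 0.17 without a background correction, so the bound holds on the corrected scale only. With any 1 null array left out, Emcn was detected on too few arrays to enter the fit.

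Among the VEGF receptors, Flt1 (VEGF receptor 1, which binds VEGF tightly and can act as a decoy) was seen by 1 of its probes, both of which are annotated to the same transcript record. That probe read 79.6, 77.4 and 77.9 on the heterozygous arrays and 98.8, 81.1 and 85.5 on the null arrays. All null arrays were higher, though null array b (4.833 on the normalised log2 scale) barely exceeded heterozygous array c (4.826). The log2 difference was 0.51 (SE 0.194), with 0.34 without null array a, 0.18 without a background correction, 0.22 in the authors' normalised values and 0.78 with array weights. The other Flt1 probe was detected on no array and differed by 0.03.

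Kdr (VEGF receptor 2, the main signalling receptor) was covered by 2 probes, annotated to 2 transcript records, that read differently. The first (ILMN_2572649) read 88.4, 93.4 and 73.7 on the heterozygous and 82.1, 68.5 and 66.8 on the null arrays, a log2 difference of -0.38 (SE 0.194). The other (ILMN_2665788) read 77.8, 83 and 82.9 on the heterozygous and 83.2, 84 and 71.2 on the null arrays, a log2 difference of 0.02 (SE 0.18). This difference was -0.09 without heterozygous array a and -0.01 without heterozygous array b, and the mean over both probes gave -0.18. Each probe was detected on 3 of 6 arrays, not the same ones, and the groups overlapped for both.

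Tek, the angiopoietin receptor also called Tie2, was detected on every array and was the one steadily detected member with a lower mean in null lens. Its raw signal was 137.2, 124.9 and 98.8 on the heterozygous arrays and 112.3, 96.4 and 114.6 on the null arrays. The groups overlapped, with a log2 difference of -0.24 (SE 0.217) that was -0.06 without null array b, -0.10 without heterozygous array a and -0.41 without heterozygous array c. Tie1, the related orphan receptor that modulates Tek, read between 70.8 and 78.2, was detected nowhere, and differed by 0.02.

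Rgs5 encodes a regulator of G protein signalling that marks pericytes and is the only mural gene among the members. It read 85.3, 85.2 and 72 on the heterozygous arrays and 99.6, 121.4 and 110.6 on the null arrays. All null arrays lay above all heterozygous arrays, on the raw and on the normalised scale. On the normalised log2 scale heterozygous lens stood at 4.75 ± 0.16 (SD, n = 3; detected on 1 array) and null lens at 5.83 ± 0.26 (SD, n = 3; detected on 3), a difference of 1.08 (SE 0.179). Over 14 alternative settings the difference ran from 0.41 without a background correction to 1.23 without null array a. With the groups apart, leaving out arrays could hardly turn its sign, so the steady sign is no support. A stricter detection filter kept only Cldn5, Esam and Tek among the members, so Rgs5 was not fitted there.

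**Figure D2:**
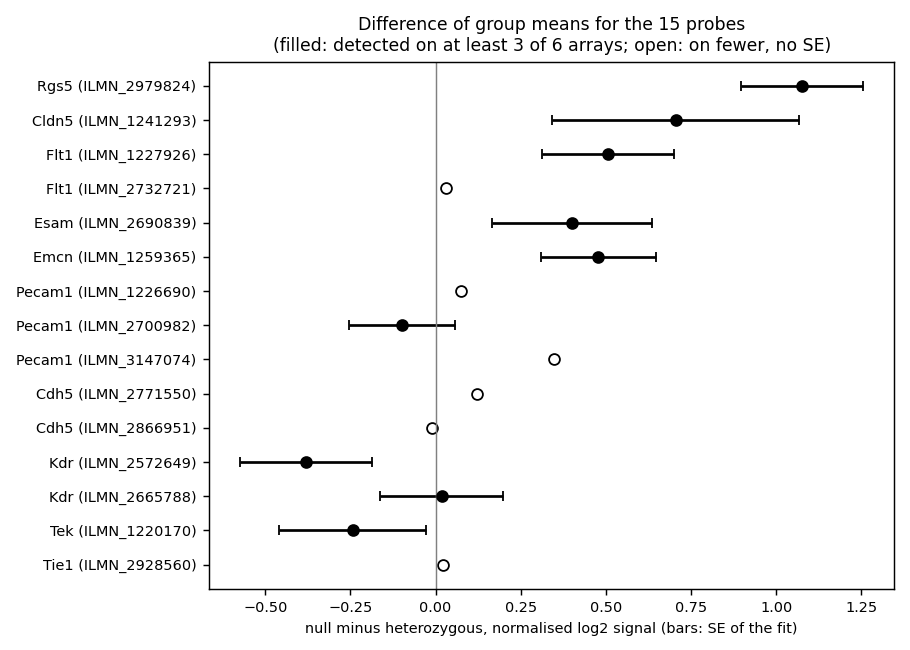
Null minus heterozygous in normalised log2 signal for the 15 probes, with the SE of the fit for the 9 probes detected on at least 3 arrays. Rgs5 lies furthest to the right at 1.08, and Tek and 1 Kdr probe lie furthest left at -0.24 and -0.38.

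Set side by side, 11 of the 15 probes had a higher mean in null lens and 4 a lower one, where 49.4% of all probes were higher. By gene, with the brightest probe and no filter, 8 of 10 members were higher with a median log2 difference of 0.26, against 48.9% of all 19057 genes and a median of -0.0035. The groups did not overlap for 4 probes, all with null above heterozygous (Rgs5, Emcn, and 1 probe each of Flt1 and Pecam1). Over all probes this was so for 5.11% upwards and 5.29% downwards. The limma fit held 9 of the member probes, for 8 genes, with 6 higher and 3 lower in null lens (50.5% of the 14636 fitted probes were higher). Of these 9, 3 had groups apart upwards and 0 downwards, against 5.43% and 5.47% of fitted probes. As the contrast had a part in the choice, nothing is read from these counts. In RNA of a whole sample, more vessel cells and more RNA per vessel cell cannot be told apart.

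Next it was asked whether the members moved together from array to array. Only 3 members were detected on all arrays, which gives 3 pairs. Cldn5 and Esam followed each other closely, with r = 0.978 and rho = 0.943 over the 6 arrays. Without the 2 arrays farthest from the median of Cldn5, r was 0.949. Both members have a higher mean in null lens, a shift that enters this r. With each genotype's mean removed, r was 0.968. Tek did not share the pattern, with r = -0.424 and rho = -0.60 against Cldn5 and r = -0.39 and rho = -0.486 against Esam. Leaving out the 2 arrays farthest from the median gave r = -0.507 for Cldn5 with Tek and, by Esam's median, -0.247 for Esam with Tek. The members were chosen with their values known, so these correlations are descriptions with no test.

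**Figure D3:**
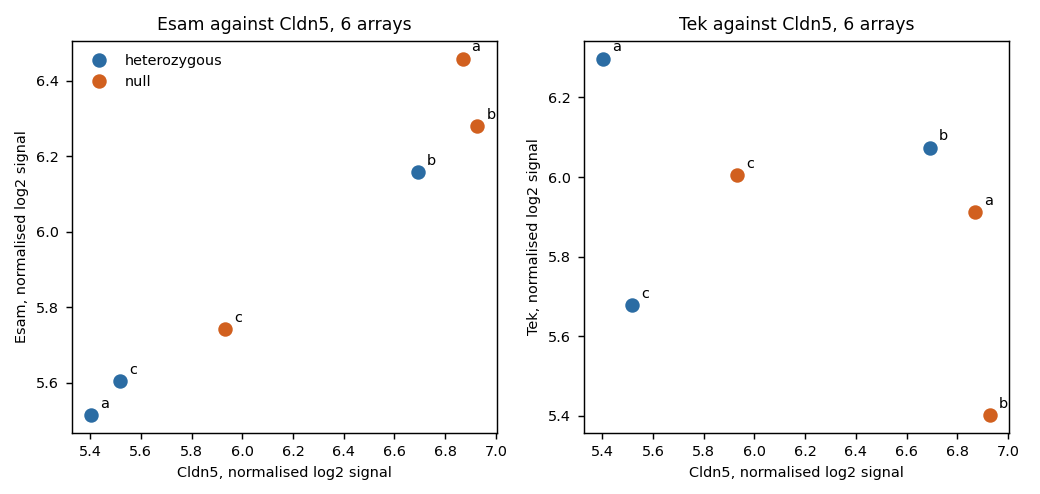
Normalised log2 signal of Esam (left) and Tek (right) against Cldn5 on the 6 arrays, blue for heterozygous and orange for null, with the array letter beside each point. Esam and Cldn5 are high on the same 3 arrays, heterozygous b and null a and b, and Tek is not.

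Over all 28 pairs of the 8 members in the fit, r ran from -0.813 (Kdr with Tek) to 0.978 with a median of 0.28, and 18 pairs were above 0. With genotype means removed the median was 0.008 and 15 pairs were above 0. Rgs5 and Emcn had r = 0.751 over the arrays and -0.274 within genotypes, and Rgs5 and Flt1 had 0.539 and -0.927. Most of these members sit near the negative controls and all are read from the same 6 RNA samples, so these values are descriptions.

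Other genes of endothelium served as a comparison, from a list of 40 genes of which 39 were named on the array. By at least 1 probe, 8 were detected on all arrays, and 16 were detected on none by any probe. Among the latter were the transcription factor genes Erg and Fli1 and the surface markers Cd34 and Icam2. Over all single probes, 25.5% were detected on all arrays and 55.1% on none. These shares also apply beside the detection counts of the lists below, and nothing about vessel genes is read from such counts. In the fit were 16 genes, 13 with a higher and 3 with a lower mean in null lens, with a median log2 difference of 0.09, where the median over 8626 genes was -0.01 and 47.8% were higher. None passed an adjusted p of 0.05 in limma (smallest adjusted p = 0.964), which 0.0137% of fitted probes did, and 0 had an unadjusted p under 0.05, which 4.11% of fitted probes had. Gja4, a gap junction gene of arterial endothelium, differed by 0.38 (SE 0.238) and by 0.09 without null array b. Gja4 and Gja5 were detected on 1 heterozygous and 3 null arrays, and Eng, Nos3 and Flt4 on 1 and 2. These genes thus passed the filter more through the null arrays. Without the filter the median difference over the 39 genes was 0.04. The guidance receptor gene Robo4 differed by 0.37 (SE 0.203), the transcription factor gene Sox18 by 0.34 (SE 0.161) and Rasip1, which acts in the forming of vessel lumens, by -0.34 (SE 0.162). Robo4 differed by 0.19 without heterozygous array a.

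Set against the mean profile of Cldn5 and Esam, 7 of the 8 other endothelial genes detected on all arrays had r above 0, with a median of 0.439 (range -0.202 for Rasip1 to 0.876 for Notch4). With genotype means removed all 8 were above 0, with a median of 0.462. Over 7077 genes detected on all arrays the median r was -0.04 and 3361 were above 0. Notch4, an endothelial Notch receptor, had raw signals of 128.5, 138.3 and 108 on the heterozygous and 133.1, 144.5 and 114 on the null arrays. Egfl7, a secreted factor of endothelial cells, read 511.2, 596.4 and 536.5 on the heterozygous and 582.1, 728.4 and 536.7 on the null arrays (r = 0.78). Robo4 had r = 0.742, while Mfsd2a, a lipid transporter of the blood-brain barrier, and Podxl, which epithelia also use, had 0.047 and 0.027. Likeness to this profile was not limited to endothelial genes: 2 of 3 macrophage markers were above 0, with a median of 0.506 (Csf1r 0.506, Aif1 0.562, Laptm5 -0.049) and 0.502 with genotype means removed. This comparison was added after the profile had been seen, over 6 arrays, and carries no p.

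Of the pericyte and smooth muscle genes besides Rgs5, 15 of 16 were named on the array and 7 were detected nowhere, among them the smooth muscle genes Myh11 and Tagln. In the fit were 3, of which 2 were higher and 1 lower, and 0 passed. Acta2, smooth muscle actin, differed by 0.34 (SE 0.178), Mcam by 0.29 (SE 0.222) and the mural Notch receptor gene Notch3 by -0.17 (SE 0.175). Acta2 read 995.2, 1032 and 707.1 on the heterozygous and 1186, 1203 and 1054 on the null arrays, and its difference was 0.20 without heterozygous array c. Mcam differed by 0.48 without null array c, while Notch3 ran from -0.27 to -0.04 when 1 array was left out. The pericyte genes Kcnj8, Higd1b, Vtn and Anpep were undetected. Pdgfrb, Cspg4, Abcc9, Des and Cox4i2 were detected on some arrays, but by no probe on 3 or more. Notch3, detected on all 6 arrays, had the opposite direction to Rgs5. The pericyte reading of Rgs5 itself rests on 1 probe.

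All 17 genes of the list of vessel ligands and their partners were named on the array, and 8 were detected on every array. Vegfa, the main VEGF, read 401.4 to 516.9 over the 6 arrays and differed by -0.09 (SE 0.161), and Angpt2, the angiopoietin that destabilises vessels, read 370.8 to 702.3 and differed by -0.10 (SE 0.238). Both were picked for mention after their values were seen. Of 12 genes in the fit 4 were higher and 8 lower, with a median of -0.06, and 0 passed (smallest limma adjusted p = 0.964; 0 with an unadjusted p under 0.05). Tgfb2 differed by -0.38 (SE 0.261) and the ephrin gene Efnb2 by -0.37 (SE 0.252), the latter also a gene of arterial endothelium. Vegfb differed by 0.35 (SE 0.227) and Sema3a, a secreted repellent, by -0.24 (SE 0.213). Without 1 array, Tgfb2 ran from -0.67 (without heterozygous array c) to -0.12 (without heterozygous array a). Efnb2 ran from -0.60 (without null array c) to -0.08 (without null array b), and Sema3a from -0.45 to -0.02, by the same arrays. Vegfb differed by 0.08 without null array b. Null array b was the extreme array for Vegfb (809.3 against 423.5 to 480.4) and for Efnb2 (97.8 against 121.5 to 155.7).

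Genes with known parts in hyaloid vessel regression were 12, all named on the array. The Norrin gene Ndp and its receptor genes Fzd4 and Lrp5, the melanopsin gene Opn4 and Epas1 were not detected on any array. Wnt7b, which macrophages use to start regression and which lens epithelium also expresses, read 2331 to 2991 and differed by -0.12 (SE 0.152). Hif1a, the oxygen-regulated subunit of the hypoxia factor, read 169.7, 176 and 136.5 on the heterozygous and 188.2, 223 and 213.1 on the null arrays, with all null arrays above all heterozygous ones. It differed by 0.53 (SE 0.161, limma adjusted p = 0.964). Vhl differed by -0.34 (SE 0.289), and by 0.04 without null array b. Lrp6 differed by -0.13 (SE 0.219), and by 0.07 without heterozygous array b. In the fit 3 genes were higher and 3 lower, with a median of -0.03. None passed in limma (smallest adjusted p = 0.964), and 1, Hif1a, had an unadjusted p under 0.05.

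**Figure D4:**
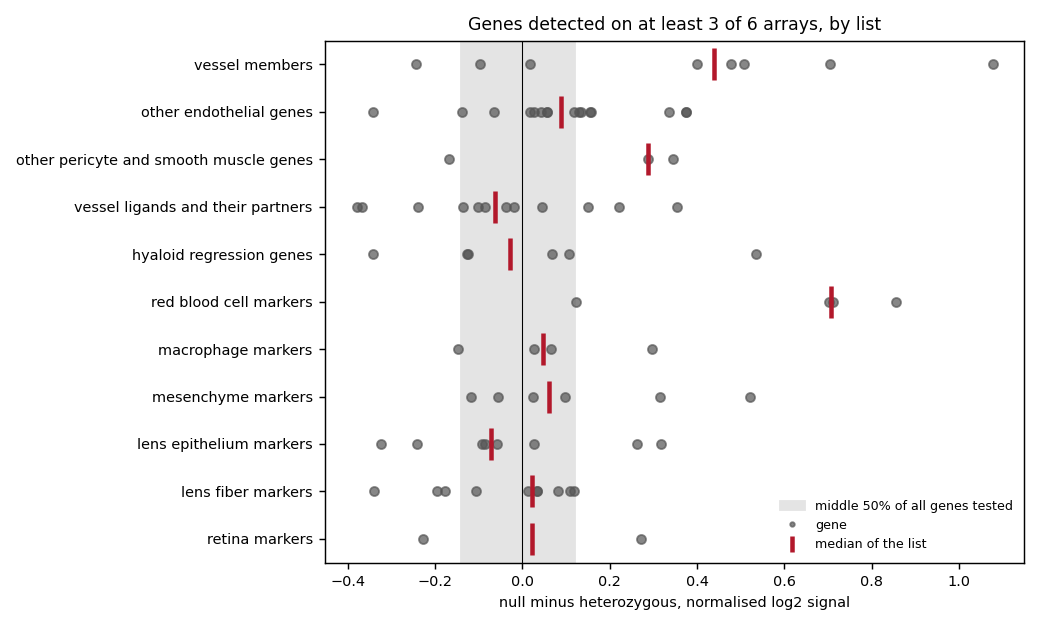
Null minus heterozygous in normalised log2 signal for each gene detected on at least 3 arrays (grey points), by list, with each list's median in red and the interquartile range of all tested genes shaded. The vessel members, chosen with this contrast known, run from -0.24 to 1.08, and the other endothelial genes from -0.34 to 0.38.

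Blood in the samples, whose place within or outside vessels was not measured, was read from red blood cell markers. These markers moved in part with Cldn5 and Esam. All 4 markers in the fit, of 10 named on the array, had a higher mean in null lens, with Hba-a1 at 0.86 (SE 0.472), Hbb-bt at 0.71 (SE 0.431), Hbb-bs at 0.70 (SE 0.384) and Slc4a1 at 0.12 (SE 0.227). By the brightest probe of each gene, none passed in limma (smallest adjusted p = 0.964), and 0 had an unadjusted p under 0.05. The other fitted probes of Hbb-bs differed by 0.29 to 1.11. The highest of them (ILMN_1255462) had an unadjusted p of 0.0084 and an adjusted p of 0.964 in limma. The summed level of the 4 markers (linear normalised signal) was 706.8, 570.6 and 311 on the heterozygous and 1074, 1013 and 461.5 on the null arrays. By this sum heterozygous array b, high in Cldn5, lay below heterozygous array a, as it did for Hba-a1 and Hbb-bt, while for Hbb-bs it was the highest heterozygous array. By the sum, null arrays a and b were high in both and null array c was low in both among the null arrays. The median r of the 4 markers with the Cldn5 and Esam profile was 0.636, and 0.493 with genotype means removed. The globin genes Hba-a1, Hbb-bs and Hbb-bt had r = 0.631, 0.761 and 0.641, and Slc4a1, the marker that is no globin gene, 0.219. With genotype means removed these were 0.479, 0.659, 0.507 and 0.123, in the same order. Alas2, Epb42, Rhag and the embryonic globin genes Hba-x and Hbb-y were detected nowhere, as was Hbb-b2. Hba-a1 differed by 0.41 without heterozygous array c, 0.51 without null array b, 1.35 without null array c, and 0.06 without the first 2 of these together. Hbb-bt and Hbb-bs differed by 0.25 and 0.29 without heterozygous array c and by 0.42 and 0.38 without null array a, Hbb-bt by 1.12 without null array c, and Slc4a1 by -0.13 without null array b. The part of blood content in the members' differences was not tested.

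**Figure D5:**
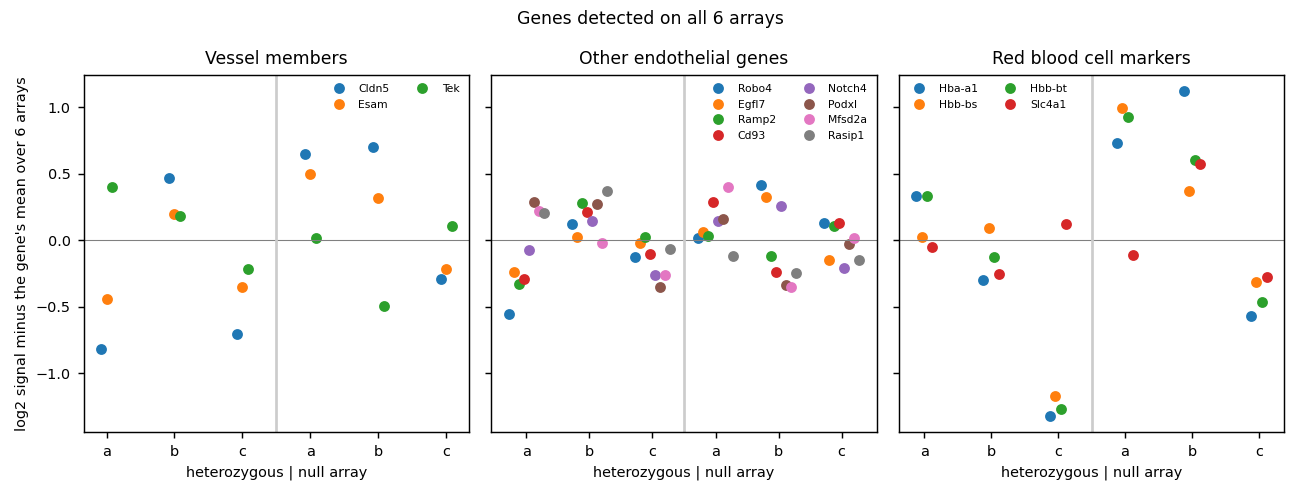
Normalised log2 signal minus each gene's mean over the 6 arrays, for the members (left), other endothelial genes (middle) and red blood cell markers (right) detected on all arrays. Cldn5 and Esam are high on heterozygous array b and null arrays a and b, and the globin genes are lowest on heterozygous array c.

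Markers of other cells near the lens were read the same way, and 0 of them passed in limma (smallest adjusted p = 0.964), while 1, Foxc1, had an unadjusted p under 0.05. Mesenchyme markers were 4 higher and 2 lower in the fit (Foxc1 0.52, Mgp 0.31, Fbln1 -0.12, Igfbp5 0.10), with summed levels of 828.5 to 1800 on heterozygous and 930.2 to 1862 on null arrays. Leaving out 1 array moved Mgp between 0.11 and 0.56, Fbln1 between -0.53 and 0.21 and Igfbp5 between -0.32 and 0.48, so the last 2 have no settled direction. Col1a1, Col3a1, Dcn, Lum and Postn were not detected. Mgp, a matrix protein that vascular smooth muscle also makes, had r = 0.927 with the Cldn5 and Esam profile, the highest of the genes in these lists. Macrophage markers were 3 higher and 1 lower (Laptm5 0.30, Lyz1 -0.15, Aif1 0.07, Csf1r 0.03), with sums of 125.5 to 140.3 and 130.1 to 144.3, and 11 of 16 were detected on no array, Adgre1 and the C1q genes among them. Retina markers in the fit were Crx at 0.27 and Rbp3 at -0.23, both near the negative controls. Crx was detected on 0 heterozygous and 3 null arrays, so it entered the fit only through the null arrays. Rbp3 was detected on 2 heterozygous arrays and 1 null array.

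Lens markers were detected on all arrays for 10 of 11 fiber genes and 7 of 8 epithelium genes. Lens fiber genes were 6 higher and 4 lower (Cryaa -0.34, Birc7 -0.20, Crygd -0.18, Mip 0.12) and lens epithelium genes 3 higher and 5 lower (Fgfr2 -0.32, Foxe3 0.32, Sfrp1 0.26, Dkk3 -0.24), with 0 passing and 0 with an unadjusted p under 0.05. Without null array b, Cryaa, Fgfr2 and Dkk3 each differed by -0.07 and Birc7 by -0.05. Mip differed by -0.04 in the authors' normalised values, and Fgfr2 by 0.05 over the mean of its probes. Tdrd7 itself was lower on all null arrays, with raw signals of 1103 to 1266 against 12473 to 13065 (log2 difference -3.48, limma adjusted p = 1.47e-05). Null array b correlated least with the rest, with a mean r of 0.967 against 0.982 to 0.985 for the others.

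Genes whose signals ran most like the mean profile of the 8 members in the fit were looked up over all tested genes. Over the 6 arrays the closest were A730008H23Rik (r = 0.98), Oma1 (0.975), Ltbp3 (0.964), S1pr3 (0.957), Pla2g6 (0.957), Olfr1509 (0.954), Scube3 (0.953) and 8430429K09Rik (0.951). With genotype means removed they were Arhgap29 (0.999), Actl6b (0.993), Asb3 (0.992), Prkd2 (0.99) and Ptgis (0.989). The gene sets share no name, and with 6 arrays and 8626 genes to choose from, values this high are a description of these arrays.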

How the data were processed

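Per the labels' protocols, biotin-marked cRNA was made from lens RNA (Illumina TotalPrep) for 6 bead arrays, 3 per genotype. The authors deposited raw intensity values on a linear scale with a detection p-value for each, per the file headers; 936 negative controls are implied by the steps of that p. The raw columns give the genotype but no replicate number. A second deposited table holds the authors' normalised intensity; its method is not given in the sources used here, and its log2 served as an alternative.

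The neqc function (limma 3.58.1, R 4.3.3; offset 16) corrected background, quantile-normalised and took log2. Probes detected (p under 0.05) by 3 or more of the 6 arrays were fitted with lmFit and eBayes without covariates, with Benjamini-Hochberg adjustment over 14636 probes. Gene names came from the platform annotation, which gives 34885 of the 45281 probes 1 symbol. A gene is its brightest probe unless said otherwise. Members and lists were chosen with earlier results of these data known. Named were all members, up to 4 genes per list with the largest difference, and the 8 and 5 genes with the nearest profiles. Vegfa, Angpt2, Wnt7b, Notch4, Egfl7, Mfsd2a, Podxl and genes detected on no or few arrays were named after their values were seen. The number of arrays limits the precision.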

Additional observations from a re-analysis of the deposited data

How the results depend on the processing

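The count of called probes was 2 and became 1 without the filter and with the replicate block, and 13 with array weights; it ran from 1 to 4 when 1 array was left out. The median of the 8 fitted members, 0.44, was 0.20 in the authors' deposited values, with and without the replicate block, and 0.18 without a background correction. It was 0.26 over 10 genes without the filter, 0.40 over 3 with the strict filter and 0.55 with array weights. When 1 array was left out it ran from 0.34 to 0.51. The median of the other endothelial genes kept its sign in every setting run, from 0.03 to 0.13. That of the pericyte and smooth muscle genes, 0.29 over 3 genes, was 0.12 in the authors' values with and without the replicate block, 0.10 without a background correction, -0.042 over 15 genes without the filter, 0.088 over 2 with the strict filter, 0.0073 to 0.44 when 1 array was left out and 0.020 without heterozygous array c and null array b, a setting chosen after seeing the data. The median correlation of members, 0.28, was -0.39 over the 3 genes of the strict filter, -0.16 to 0.39 when 1 array was left out and -0.036 without those 2 arrays. Of single genes, 759 of 791 values moved by less than the spread between arrays and 32 by more, and 34 had the opposite sign. Among the latter were values of Fbln1, Igfbp5, Lrp6, Vhl and Fgfr2. Of the members, Kdr turned sign in 3 of 10 settings and Pecam1 in 1 of 11. Deviations of same-numbered samples had r = 0.158, -0.154 and -0.147, and 1 of 3 heterozygous samples correlated best with its own number. With 3 arrays per group these values cannot decide whether the numbers mark a pairing. The replicate block left 1 call. The causes of these shifts were not tested. Signals near the negative controls limit what most members can show.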
